A study of Mus musculus with 6 samples.

Results

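Bone morphogenetic proteins (BMPs), their secreted antagonists and the Id genes that BMP signaling turns on were measured in colon tissue with tumors. The genes were chosen by name, and every gene probe that the scanner files assign to Bmp2, Bmp4, Bmp5, Bmp7, Grem1, Chrdl1, Id1, Id2 or Id3 was taken, which gave 9 genes and 16 probes of the 56605 gene probes on the array. On the probe used for each gene, all 9 were well above background on all 6 arrays, and they are 9 of the 19090 genes tested. The tissue, labelled as colon tumor, came from male C57BL/6 mice, bought as young adults, in which tumors had been induced with azoxymethane (AOM), a carcinogen, and dextran sulfate sodium (DSS), which inflames the colon, so both groups carried colitis-associated tumors. For the 3 test samples the mice were given RG@M-γ-CD by mouth, the Rgnanomedicine of the labels, in which regorafenib, a multi-kinase inhibitor, is loaded into γ-cyclodextrin modified with mannose. For the 3 control samples they were given PBS by mouth. By the study's methods the colons were taken after treatment had ended and a further period of observation had passed. Each sample has 1 one-color Agilent array, all 6 on 1 slide with 1 scan. The study describes the samples of each group as coming from independent mice, though the labels number the samples and not the animals.

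BMPs are secreted ligands of the transforming growth factor β family that bind paired receptors and act through SMAD proteins in the nucleus. Antagonists such as Grem1 and Chrdl1 bind the ligands outside the cell and keep them from the receptors, and Id proteins, which block basic helix-loop-helix factors, are among the most direct readouts of the pathway. In the colon, BMP signaling is strong toward the crypt surface, where epithelial cells mature, and is held low at the crypt base by antagonists made in the smooth muscle and fibroblasts beneath it.

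Values are log2 intensities minus the 75th percentile over gene probes of the same array, so 0 is that percentile and 1 unit is a doubling. A level of 1 probe is not compared with that of another, because probes differ in how strongly they bind. Between 28099 and 31217 gene probes were well above background per array, which is 49.6% to 55.1%. Before any result, it has to be said that the arrays of a group did not all resemble each other. A heat map of the study places RG@M-γ-CD replicates 2 and 3 beside PBS replicate 1, and RG@M-γ-CD replicate 1 beside PBS replicates 2 and 3, which is not the grouping of the labels used here. Results that rest on these arrays are therefore given with and without RG@M-γ-CD replicate 1. In tissue of mixed cells, fewer cells of a type and less RNA per cell cannot be told apart.

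The probes that the main patterns turn on are shown here, 5′ to 3′, as the first 30 bases of each probe of 60 bases, or whole where 60 bases are printed. Positions are in the mouse build mm9 that the scanner files use, and no annotation of that build was used here to place them in exons or introns. The 3 Chrdl1 probes are shown because they gave the widest spread between arrays and did so separately. They lie on the minus strand at chrX:139731809-139731868, chrX:139721965-139722024 and chrX:139732391-139732449, with 9784 and 522 bases between neighbors.

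A_52_P674808: gggactatgacagaatgtttacagagatca
A_55_P2811722: aggtggttatagagcacatacctagcatat
A_55_P2923106: gcaatccccaatctcttgggccaaagggtt

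The pair of Id2 probes is shown because they ordered the arrays differently. They lie on the minus strand at chr12:25778904-25778963 and chr12:25780080-25780139, 1116 bases apart.

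A_52_P240542: tgagtgaaccttgtggactctttaattaga
A_52_P94071: gtaatgtgcttgtgtgtctgttaaatgttt

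Of the Bmp5 probes, the one used for the gene lies at chr9:75747841-75747900 on the plus strand. The others printed were not well above background on any array. A_52_P118356 covers 11394 bases of the genome with 60 bases of probe (chr9:75675966-75687359, plus strand), so it is split across an intron, and A_51_P353264 (chr9:75745727-75745786) lies on the strand opposite to the gene.

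A_65_P06881: tcaagcaagaatccatccttactaactttc
A_52_P118356: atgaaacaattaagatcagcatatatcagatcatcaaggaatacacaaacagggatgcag
A_51_P353264: cagaaagttctaagtctgcaaaatattgta

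Comparing RG@M-γ-CD with PBS asks whether oral treatment changed BMP gene expression in the tumor-bearing colon. With the arrays grouped as labelled, none of the 9 genes was shown to change. The antagonists Chrdl1 and Grem1 had the largest positive differences, of 1.20 ± 0.74 and 0.65 ± 0.59 (log2 difference ± SE, 3 arrays against 3), and Bmp7 the largest negative one, −0.60 ± 0.62. In total 0 of 9 genes passed the adjusted threshold in limma, as did 0.0% of all genes, and the smallest Benjamini-Hochberg adjusted p over all genes was 0.818. At an unadjusted p under 0.05 limma again gave 0 of 9, where 419 of all genes (2.19%) were below it. The methods' t-test gave 0 of 9 as well, where 381 of all 19090 genes were below it. For none of the 9 did the groups fail to overlap, where they failed to for 4.57% of all genes. The sign was positive, that is higher after treatment, for 7 of the 9 genes and negative for 2, with a median difference of 0.14 beside −0.01 over all genes tested.

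**Figure D1:**
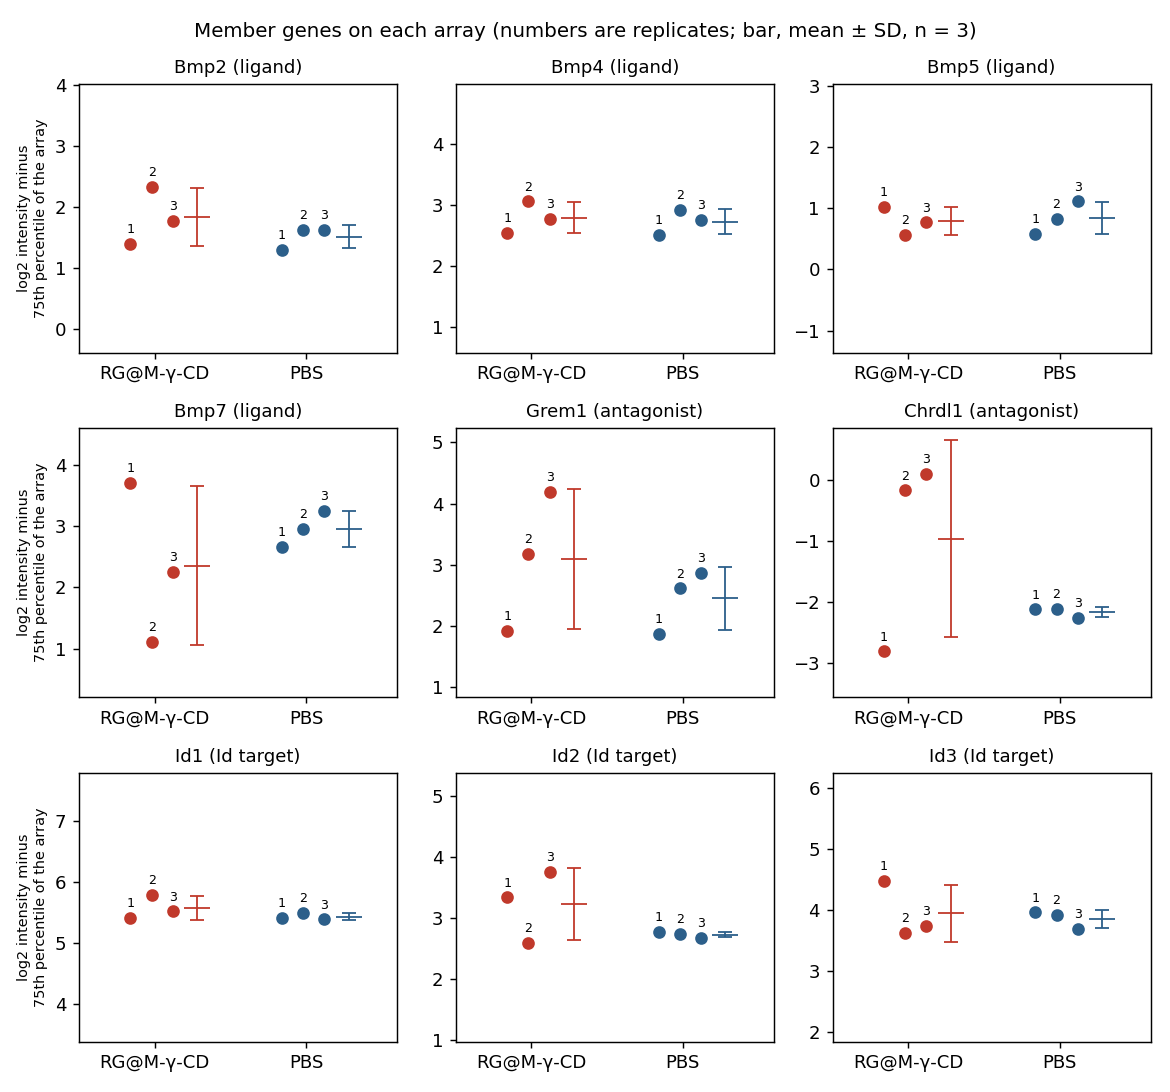
Each panel plots 1 gene, with the log2 intensity relative to the 75th percentile of the array on a y axis that spans the same number of log2 units in all panels; points are arrays numbered by replicate and bars are the mean ± SD of 3 arrays. Chrdl1, Grem1 and Bmp7 spread widely among the RG@M-γ-CD arrays, while Id1, Bmp4 and Bmp5 ranged over 0.40, 0.55 and 0.55 on all 6.

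Among the ligands, Bmp2, which maturing colon epithelium makes, gave 1.39, 2.33 and 1.78 on RG@M-γ-CD replicates 1, 2 and 3 and 1.31, 1.62 and 1.63 on the PBS replicates. RG@M-γ-CD replicates 2 and 3 were the highest arrays, and replicate 1 lay among the PBS arrays. The means were 1.84 ± 0.47 and 1.52 ± 0.18 (SD, n = 3), a difference of 0.32 ± 0.27 (SE) with a 95% interval from −0.32 to 0.96. Leaving out RG@M-γ-CD replicate 2 gave 0.07.

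Bmp4, the ligand best known from the mesenchyme under the crypts, gave 2.55, 3.06 and 2.77 in RG@M-γ-CD and 2.51, 2.93 and 2.76 in PBS. The groups had almost the same range. The difference was 0.06 ± 0.20, with an interval from −0.42 to 0.55, so a change of a doubling in either direction lies outside it. The other Bmp4 probe, 351 bases away, gave −0.24, −0.24 and −0.17 against −0.31, −0.10 and 0.03, a difference of −0.09 ± 0.16.

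Bmp5, a further ligand of the same branch as Bmp7, gave 1.02, 0.57 and 0.77 in RG@M-γ-CD and 0.58, 0.83 and 1.11 in PBS. Each group held a high, a middle and a low array. The difference was −0.05 ± 0.21 on this probe and 0.21 ± 0.21 on the second probe above background, A_51_P516637, so their sign was not the same and both intervals include 0.

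Bmp7, an epithelial ligand, gave 3.71, 1.11 and 2.26 in RG@M-γ-CD and 2.67, 2.96 and 3.25 in PBS. RG@M-γ-CD replicate 1 was the highest of all 6 arrays and replicates 2 and 3 were the lowest, so the PBS arrays lay inside the range of the treated ones. The means were 2.36 ± 1.30 and 2.96 ± 0.29 (SD, n = 3), and the 95% interval of the difference ran from −2.10 to 0.89, a fold of 0.659 (0.234 to 1.86). Leaving out RG@M-γ-CD replicate 1 gave a difference of −1.28, and leaving out replicate 2 gave 0.02.

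Of the antagonists, Grem1, which binds BMP2, BMP4 and BMP7, gave 1.91, 3.18 and 4.20 in RG@M-γ-CD and 1.87, 2.61 and 2.86 in PBS. Replicates 2 and 3 of RG@M-γ-CD were again the highest arrays, and replicate 1 lay beside the lowest PBS array. The means were 3.10 ± 1.14 and 2.45 ± 0.51 (SD, n = 3), with a 95% interval of the difference from −0.76 to 2.06, a fold of 1.57 (0.589 to 4.16). Leaving out RG@M-γ-CD replicate 3 gave a difference of 0.10, and leaving out replicate 1 gave 1.24.

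Chrdl1, a chordin-like antagonist of the BMPs, gave −2.81, −0.18 and 0.10 in RG@M-γ-CD and −2.12, −2.11 and −2.26 in PBS. The PBS arrays were close together, RG@M-γ-CD replicates 2 and 3 stood above all of them, and replicate 1 stood below all of them. The means were −0.96 ± 1.60 and −2.16 ± 0.08 (SD, n = 3), and the interval of the difference ran from −0.58 to 2.99, a fold of 2.30 (0.667 to 7.93).

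The remaining Chrdl1 probes shown above had the same lowest array and the same pair of highest arrays, with replicate 2 of RG@M-γ-CD above replicate 3 on these probes. A_55_P2811722 read −3.09, 0.02 and −0.32 in RG@M-γ-CD and −2.27, −2.16 and −2.83 in PBS, a difference of 1.29 ± 0.81. A_55_P2923106 read −2.86, −0.02 and −0.10 against −1.95, −1.89 and −2.79, a difference of 1.21 ± 0.78. On all 3 probes RG@M-γ-CD replicates 2 and 3 were the highest arrays and RG@M-γ-CD replicate 1 the lowest. The probes measure the same 6 tissue samples, so they are not replicates of the treatment.

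Of the Id targets, Id1 gave 5.40, 5.78 and 5.51 in RG@M-γ-CD and 5.40, 5.49 and 5.38 in PBS. All arrays lay within 0.40 of each other. The difference was 0.14 ± 0.16, with an interval from −0.25 to 0.53.

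Id3, which like Id1 responds directly to SMADs, gave 4.47, 3.62 and 3.74 in RG@M-γ-CD and 3.96, 3.92 and 3.68 in PBS. RG@M-γ-CD replicate 1 was the highest array, and the other two lay with the PBS arrays. The difference was 0.09 ± 0.26, with an interval from −0.53 to 0.71, and leaving out replicate 1 of RG@M-γ-CD turned it to −0.17.

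Id2, which many other signals also induce, gave 3.34, 2.60 and 3.76 in RG@M-γ-CD and 2.77, 2.74 and 2.68 in PBS. RG@M-γ-CD replicates 1 and 3 lay above the closely spaced PBS arrays and replicate 2 below them. The means were 3.23 ± 0.59 and 2.73 ± 0.05 (SD, n = 3), a difference of 0.50 ± 0.30 with an interval from −0.22 to 1.22.

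The second Id2 probe, A_52_P94071, gave −1.57, 0.04 and −0.69 in RG@M-γ-CD and −0.46, −1.94 and −1.61 in PBS. Here RG@M-γ-CD replicate 2 was the highest array, where it was the lowest on the probe used for the gene. The differences between groups were alike in size, 0.60 ± 0.53 beside 0.50 ± 0.30, but they did not come from the same arrays. Without RG@M-γ-CD replicate 2 the difference of the first probe was 0.82 and its groups did not overlap, as was so for 14.8% of all genes in that fit, and its adjusted p was 1.0 in limma.

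The members also differed in how far they spread between arrays. Over the 6 arrays the SD was 1.21 for Chrdl1, 0.91 for Bmp7 and 0.87 for Grem1, above the SD of 98.1%, 94.0% and 93.3% of the genes tested. Id1 had the smallest of the 9, 0.15, above that of 16.2% of genes, and Bmp4 and Bmp5 had 0.21 and 0.22. The median over all genes was 0.27.

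Leaving out RG@M-γ-CD replicate 1 changed the call for Chrdl1 and for no other member. With 2 arrays against 3, Chrdl1 was 2.13 ± 0.18 higher in RG@M-γ-CD, a fold of 4.36, with an adjusted p of 0.0300 in limma, and it was the single gene of the 9 past the adjusted threshold. Grem1 was 1.24 ± 0.42 higher with an adjusted p of 0.287, and Bmp7 was 1.28 lower on the log2 scale (−1.28 ± 0.38) with an adjusted p of 0.226. In that fit 1.04% of all genes passed the adjusted threshold. The groups did not overlap for 5 of the 9, Bmp2, Bmp7, Grem1, Chrdl1 and Id1, where 25.9% of all genes did not overlap. Neither fit gave an adjusted call for Id1, Id2 or Id3. RG@M-γ-CD replicate 1 was the lowest array for Chrdl1, so the adjusted p of 0.0300 in limma rests on which array was left out. That value is for probe A_52_P674808, on which the PBS arrays lay closer together than on the remaining Chrdl1 probes. Those probes were not fitted without RG@M-γ-CD replicate 1. Leaving out PBS replicate 1, which the heat map also places apart from its group, gave 1.22 for Chrdl1. No member passed the adjusted threshold when any array other than RG@M-γ-CD replicate 1 was left out. With the arrays placed as in the heat map, RG@M-γ-CD replicates 2 and 3 with PBS replicate 1 against the rest, 0 of the 9 passed the adjusted threshold, beside 0.0259% of all genes. There Bmp5 (−0.35) and Bmp7 (−1.29) did not overlap between the sides, as 25.5% of all genes did not, and Chrdl1 was 1.66.

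**Figure D2:**
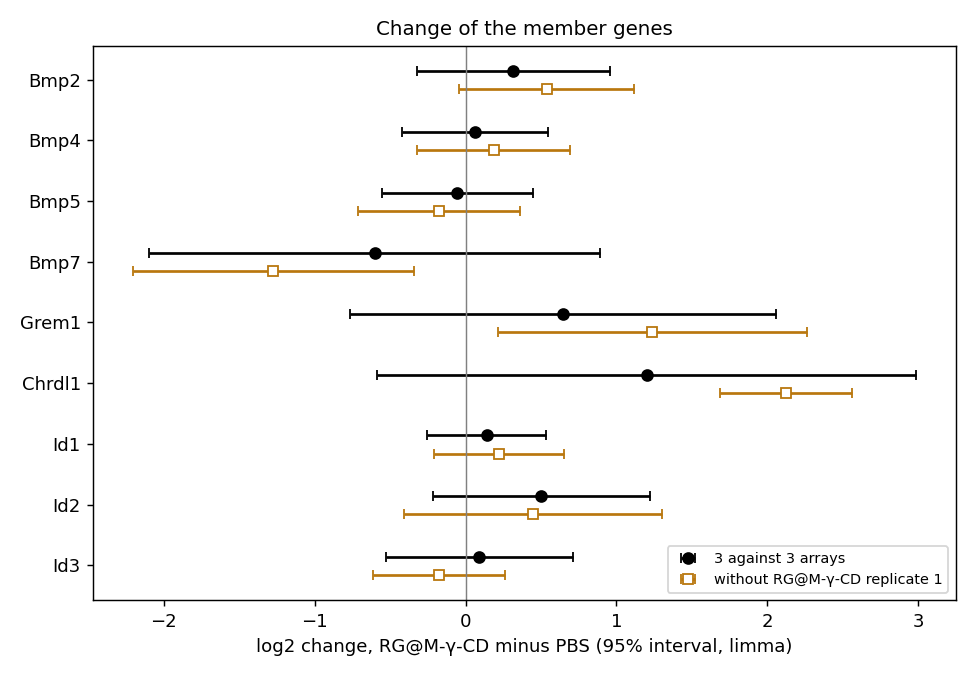
The x axis gives the log2 change (RG@M-γ-CD minus PBS) of each gene with its 95% interval in limma, filled circles for 3 against 3 arrays and open squares without RG@M-γ-CD replicate 1. All 9 intervals of the first fit include 0, and those of Bmp7, Grem1 and Chrdl1 leave 0 in the second, where Chrdl1 alone of the 9 passed the adjusted threshold. In that second fit 12.5% of all genes lay at an unadjusted p under 0.05 in limma, which is when an interval leaves 0.

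The arrays sat in 2 rows of the slide, RG@M-γ-CD replicates 1 to 3 with PBS replicate 1 in the first and PBS replicates 2 and 3 in the second, so the second row holds PBS only. Within the first row, which rests on a lone PBS array, the difference was 1.16 for Chrdl1, 1.22 for Grem1, 0.53 for Bmp2, 0.28 for Bmp4, −0.31 for Bmp7, 0.46 for Id2 and 0.17 for Id1. Bmp5 turned to 0.21 and Id3 to −0.01. With the row as a block, limma again gave 0 of 9 genes past the adjusted threshold.

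Smooth muscle genes shared with Chrdl1 the lowest array and the pair of highest arrays. The median of 7 smooth muscle markers, the contractile genes of the gut wall, was 2.38, 4.61 and 5.22 in RG@M-γ-CD and 3.35, 2.87 and 3.15 in PBS. For 7 of 7 of these genes RG@M-γ-CD replicates 2 and 3 were the highest arrays and RG@M-γ-CD replicate 1 the lowest, and all 7 were well above background on every array. The share of all genes with this order of arrays, or with those given for the lists below, was not counted. With RG@M-γ-CD replicate 1 left out, the groups did not overlap for 25.9% of all genes, in either direction. Myh11, the smooth muscle myosin heavy chain, gave 1.26, 4.37 and 4.49 in RG@M-γ-CD and 2.50, 2.07 and 2.40 in PBS, and Tagln, which binds actin, gave 5.17, 7.86 and 8.11 against 6.25, 6.21 and 6.31.

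The enteric neuron and glia list had the same arrays on top. Its median over the 6 genes tested of 7 was −2.79, −0.61 and −0.49 in RG@M-γ-CD and −2.15, −1.66 and −1.65 in PBS, with RG@M-γ-CD replicates 2 and 3 the highest for 6 of 6. Gfap was not tested, and Sox10 passed the background limit on 2 of the 3 treated arrays. Both lists name cells found in the muscle wall, and the part of these cells in the values of Chrdl1, Grem1 and Bmp7 was not tested.

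The labelled tissue carried its epithelium throughout. The median of 7 epithelial markers was 7.14, 6.87 and 7.16 in RG@M-γ-CD and 6.87, 7.27 and 7.26 in PBS, and all 7 were well above background on all arrays. Mature colonocyte markers read 2.16, 4.09 and 4.38 against 3.06, 3.46 and 3.89, with RG@M-γ-CD replicate 1 the lowest for 4 of 7. Fibroblast markers, the other usual source of Grem1, had a median of 2.95, 3.10 and 3.73 against 3.32, 3.30 and 3.41. Gene by gene, RG@M-γ-CD replicate 1 was the lowest array for 5 of 7 of them, and replicates 2 and 3 were the highest for 3 of 7.

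**Figure D3:**
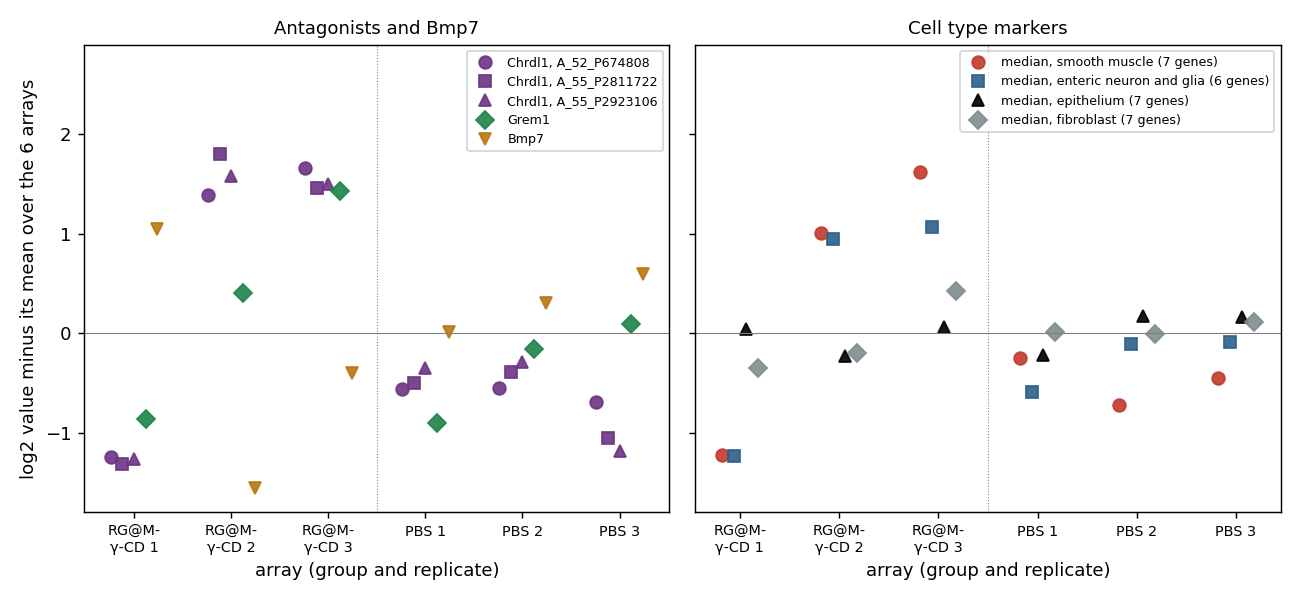
The left panel plots the 3 Chrdl1 probes, Grem1 and Bmp7 and the right panel the medians of 4 marker lists, each as the log2 value on an array minus its own mean over the 6 arrays. Chrdl1 and the smooth muscle and enteric medians are lowest on RG@M-γ-CD replicate 1 and highest on replicates 2 and 3, Bmp7 is highest on replicate 1 and lowest on replicates 2 and 3, and the epithelial median lies between 6.87 and 7.27 before centring.

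Other lists were measured for cells that a piece of colon could hold. Macrophage markers had a median of 1.94, 1.35 and 1.38 in RG@M-γ-CD and 1.97, 2.10 and 2.06 in PBS, with 0 of 6 higher in RG@M-γ-CD and replicates 2 and 3 the lowest for 5 of 6. The endothelial median was 0.31, 0.69 and 0.48 against 0.24, 0.55 and −0.03, and that of lymphocyte markers, of which Cd79a was not tested, −0.77, −1.07 and −0.95 against 0.37, −0.20 and −1.44. Squamous markers of the anal margin, 4 of 6 tested without Krt5 and Sprr3, read 0.99, 1.31 and 0.93 against 1.71, 1.71 and 1.24.

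Of 7 distal Hox genes, which mark position along the gut, 3 were tested. Hoxa13 gave 0.53, 0.63 and 0.27 in RG@M-γ-CD and 0.54, 0.65 and 0.41 in PBS, and Hoxb13 gave 6.52, 6.60 and 6.66 against 6.14, 6.79 and 6.30, so both stayed within a narrow range. Hoxd13 did not, with −3.77, 3.20 and 2.33 in RG@M-γ-CD and 3.35, −0.09 and −2.89 in PBS. Hoxd13 was high on RG@M-γ-CD replicates 2 and 3 and PBS replicate 1, which are the arrays that the heat map of the study puts together. Of 6 exocrine pancreas genes 2 were tested. Cela1 passed the background limit on all 6 arrays, with 6.02, 7.0 and 6.85 in RG@M-γ-CD and 6.43, 6.77 and 6.17 in PBS, and Prss2 passed it on 3 PBS arrays and on 0 treated arrays. The part of sampling position in the members' values was not tested.

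The rest of the pathway was read from 60 further genes in 5 lists, of which 46 were tested. There 24 had a positive and 22 a negative difference, the median difference was 0.02, 0 passed the adjusted threshold, 1 lay at an unadjusted p under 0.05 and 3 did not overlap between groups, beside 2.19% and 4.57% of all genes. Without RG@M-γ-CD replicate 1, Gdf5 and Id4 were among those past the adjusted threshold in limma, higher in RG@M-γ-CD by 1.84 and 1.63, in a fit where 1.04% of all genes passed it.

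Of 8 other BMP and GDF ligands tested of 13 listed, 4 were higher and 4 lower. Gdf5, a ligand best known from joints, had the largest positive difference, 1.16 ± 0.56, with −3.04, −1.20 and −0.79 in RG@M-γ-CD and −2.75, −2.78 and −2.97 in PBS, so that RG@M-γ-CD replicate 1 was the lowest array and the other two the highest. Gdf11 had the largest negative one, −1.12 ± 0.73, and passed the background limit on 2 of 3 treated arrays. Bmp8b and Gdf10 also passed it on 2 of those 3, and Bmp10, Bmp15, Gdf2, Gdf6 and Gdf7 were not tested.

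Of the receptors and co-receptors 10 of 12 were tested, with 7 higher, 3 lower and a median of 0.08. Rgma, a BMP co-receptor, read 0.43, 2.06 and 2.02 in RG@M-γ-CD and 1.02, 0.84 and 1.05 in PBS, a difference of 0.53 ± 0.45. Bambi, a decoy receptor without a kinase, read 2.51, 1.95 and 2.79 against 3.51, 2.47 and 2.67, a difference of −0.46 ± 0.34. Bmpr1b and Hjv were not tested.

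Of the SMADs and their regulators, 10 of 10 were tested, with 3 higher, 7 lower and a median of −0.02. Smad9, a receptor-activated SMAD of the BMP branch, read −3.11, −3.42 and −2.51 in RG@M-γ-CD and −3.42, −3.65 and −3.60 in PBS, a difference of 0.54 ± 0.26 in which the groups came close to touching without overlapping. Smad1, of the same class, had the largest negative difference, −0.12 ± 0.15.

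Among the other secreted antagonists 11 of 16 were tested, 6 higher and 5 lower. Nbl1, which binds BMPs as a member of the Dan family, read 3.45, 3.41 and 3.52 in RG@M-γ-CD, above 2.98, 3.27 and 2.93 in PBS, a difference of 0.40 ± 0.16. It was the gene of the lists at an unadjusted p under 0.05, and its Benjamini-Hochberg adjusted p in limma was 1.0. Fst, which encodes follistatin and binds activins as well as BMPs, read −0.93, −3.19 and −1.37, below −0.69, −0.70 and −0.33, a difference of −1.26 ± 0.57 with groups that did not overlap. Nog, Chrd, Sost, Sostdc1 and Cer1 were not tested with all 6 arrays grouped as labelled.

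Of 9 other genes, listed as targets of BMP signaling or as partners of the Id proteins, 7 were tested, with 4 higher and 3 lower. Msx1, a homeobox target of BMP signaling, read 2.04, 0.33 and 2.77 in RG@M-γ-CD and −0.21, 0.98 and −0.05 in PBS, a difference of 1.47 ± 0.65, and as on the first Id2 probe the high arrays were RG@M-γ-CD replicates 1 and 3. Tcf4, an E protein that Id proteins bind, had the largest negative difference, −0.35 ± 0.29. Msx2 and Runx2 were not tested.

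**Figure D4:**
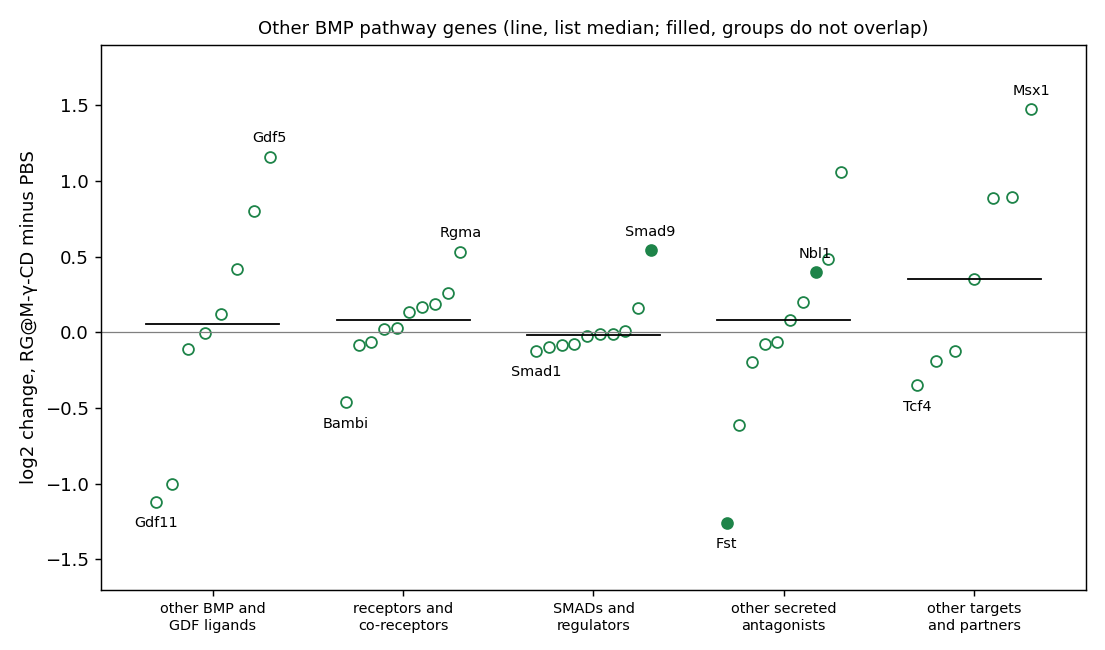
Points are 45 of the 46 tested pathway genes in their 5 lists, the y axis is the log2 change (RG@M-γ-CD minus PBS, 3 against 3 arrays), the line is the median over all tested genes of a list and filled points are genes whose groups do not overlap. The 3 filled points are Nbl1, Fst and Smad9, and the SMAD list runs from Smad1 at −0.12 to Smad9 at 0.54.

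For the ligand, the antagonist and the Id gene with the widest spread, the genes with the most similar pattern were sought by the root mean square difference of log2 values centred on their mean over the 6 arrays. The nearest to Bmp7 were Grhl3, Aif1l and A930038B10Rik, at 0.080, 0.118 and 0.120. The nearest to Chrdl1 were Hspb2, Adamts8 and Rspo3, at 0.121, 0.121 and 0.122, and those to Id2 were Zfp783, Smad9 and Hspa2, at 0.114, 0.140 and 0.140. For Id2 this holds for probe A_52_P240542, and the second Id2 probe ordered the arrays differently. The neighbors were picked as the closest of 19087 genes over 6 arrays, so this likeness is a description.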

How the data were processed

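Gene expression was measured in 6 samples of colon tissue with tumors, 3 per group, grouped by the treatment in the labels. The authors deposited, per array, spot intensity values from Agilent Feature Extraction 10.7.1.1 (as the submitters' processing notes name it), background-corrected and not yet scaled from array to array. A second table deposited by the authors holds log2 values of the probes, normalized by a method not given in the sources used here, and served as an alternative. Its member changes were close to those under quantile normalization, 1.268 and 1.267 for Chrdl1, so these alternatives hardly differ. In R 4.3.3 with limma 3.58.1, control and outlier spots were left out, spots of a probe were averaged as log2, and the 75th percentile of gene probes was subtracted per array. Probes well above background (at least 0.5 of spots) on all 3 arrays of a group were tested, with the brightest per gene. The fit was lmFit and eBayes over all 19090 genes, with Benjamini-Hochberg adjustment at 0.05. It was tested on simulated data. No gene spot was saturated. With 3 arrays in a group, their number limits the precision.

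The members, gene lists and tests were chosen with earlier results of these data known. Named were the 9 members, the 3 nearest patterns, and from each pathway list the genes at an unadjusted p under 0.05 and the largest rise and fall. Marker lists were given by their median, with the brightest or dim genes where they bear on a member. The distal Hox and exocrine pancreas lists were given by single genes and not by a median. Myh11, the Hox genes, Cela1, and Gdf5 and Id4 without RG@M-γ-CD replicate 1, were added after their values were seen. The values of 1 pathway gene that the rule names are not reported here, though it is in the counts. Alternatives were quantile normalization, normexp with an offset of 50, the authors' table, other probe filters and averages, outliers kept, the slide row and the replicate number as blocks, the methods' t-test, the heat map's grouping and leaving out each array.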

Additional observations from a re-analysis of the deposited data

How the results depend on the processing

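Over 18 alternative settings the 9 log2 changes were recomputed 162 times, of which 150 kept direction and side of the threshold, 11 reversed and 1 newly passed it. Under some settings each change was that of the main fit, so it could not reverse. These were no filter on dim probes, probes above background on all 6 arrays, every probe tested, the replicate block and the methods' t-test. Bmp2, Grem1, Chrdl1, Id1 and Id2 did not reverse under any of the 18 settings. The heat map's grouping, counted among the 18, compares other sets of arrays, so a sign kept there is not that of the treatment difference. With the mean of a gene's probes Bmp4 was −0.012 and Bmp5 0.080, and with the slide row as a block Bmp5 was 0.21 and Id3 −0.014. In the grouping of the heat map (RG@M-γ-CD replicates 2 and 3 and PBS replicate 1 minus the others) Id3 was −0.25, 2 members did not overlap (25.5% of all genes), 5 of all genes passed the adjusted threshold, and of the pathway genes 6 lay at an unadjusted p under 0.05 (16.5% of all genes) and 7 did not overlap. With normexp 1 member, Id1, did not overlap (4.61% of all genes), and 3 pathway genes lay at an unadjusted p under 0.05 (1.69%). With no filter on dim probes 2 pathway genes did so (2.09%) and 5 did not overlap (3.79%). The cause of these shifts was not tested.

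Leaving out each array in turn, the changes ranged from 0.068 to 0.54 for Bmp2, −0.069 to 0.19 for Bmp4, −0.19 to 0.081 for Bmp5, −1.28 to 0.024 for Bmp7, 0.096 to 1.24 for Grem1, 0.67 to 2.13 for Chrdl1, 0.031 to 0.22 for Id1, 0.24 to 0.82 for Id2 and −0.17 to 0.25 for Id3. Members past the adjusted threshold ranged from 0 to 1 and those not overlapping from 0 to 5. Pathway genes past the adjusted threshold ranged from 0 to 3, those at an unadjusted p under 0.05 from 0 to 12 and those not overlapping from 3 to 19. The highest of these counts came without RG@M-γ-CD replicate 1. Which pathway genes were tested also changed with the array left out, as Sostdc1 was tested in that fit. All genes past the adjusted threshold ranged from 0 to 202, and the highest count came without RG@M-γ-CD replicate 1. In that fit 12.5% of all genes lay at an unadjusted p under 0.05 and 25.9% did not overlap.

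Replicate numbers are shared by the groups, but same-numbered arrays did not deviate together (r of −0.25, −0.23 and 0.14 across genes), and the main fit did not pair them. These correlations cannot show whether the samples were paired by design, which the labels do not say. With the replicate block 0 genes passed the adjusted threshold and no call of a member changed. The unadjusted p of Grem1 in limma was 0.095 with the block and 0.309 without it.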
